A study of Caenorhabditis elegans with 8 samples.

Results

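The 10 lipase genes of Caenorhabditis elegans described here are lips-3, lips-6, lips-7, lips-10, lips-11 and lips-14 of the lips (lipase-related) family, the fasting-induced lipase genes fil-1 and fil-2, the adipose triglyceride lipase homologue atgl-1, and the hormone-sensitive lipase homologue hosl-1. They are 10 of the 17118 genes that a probe set with a single gene symbol stood for on the array. The symbols were listed with earlier results of these arrays in view, so the number of them that changed supports nothing beyond the values themselves. Each gene was read from the probe set chosen by its mean log2 signal over the 8 arrays, the highest where a gene had several. That mean is the measured value behind the selection, and it does not use the groups. All 10 were found, with 14 probe sets in all, and lips-10, atgl-1 and hosl-1 had more than 1.

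Worms of the laboratory strain N2 were compared on a 1-colour Affymetrix array in 4 groups with 2 arrays each. Fed worms and fasted worms were each kept either with cholesterol or without it, deprivation having begun at hatching; nematodes cannot make sterols and take them from the medium. Worms of every group were moved as young adults onto plates with FUDR, a nucleotide analogue that blocks production of progeny, and RNA was taken on day 4 of adulthood. Fasting began on day 2, and the labels give its length as 24 h in one field and 48 h in another, so no duration is used below. The submitters call the 2 replicates independent, without saying whether they were separate cultures or how many worms went into an RNA sample. The p-values therefore rest on the spread between these samples, pooled over the 4 groups and drawn toward that of all probe sets.

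Animals keep triglyceride in lipid droplets, and lipases release fatty acids from it when food is short. In the usual scheme adipose triglyceride lipase removes the first fatty acid and hormone-sensitive lipase acts on the diglyceride that is left, while lysosomal acid lipases work by a separate route. In C. elegans most fat is held in the intestine and the hypodermis. The lips genes are named for their sequence likeness to lipases, and the substrate of most of them is not established. The genes fil-1 and fil-2 took their names from a rise in transcript level that earlier work saw in fasted worms.

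The deposited values are intensities on a linear scale after RMA, a normalisation that equalises the distributions of the arrays, and they are given below as log2(signal + 1). Array medians lay between 66.9 and 71.0 intensity units, and replicates correlated at r = 0.992 to 0.994 over probe sets. Since RMA removes differences in total RNA, and RNA came from a mixture of tissues, fewer cells of a type and less RNA per cell cannot be told apart. The lower quartile of all log2 values, 4.69, serves as a mark of dim signal: lips-14 had 3 group means below it and fil-2 had 2. Below that mark a change is understated.

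The 10 genes fell into 3 sets by how far their 4 group means spread. The group means of lips-11 spanned 4.87 log2 units, those of lips-14 spanned 3.33 and those of fil-1 spanned 1.62. Those of hosl-1, lips-10, fil-2 and atgl-1 spanned between 0.42 and 0.79. Those of lips-7, lips-6 and lips-3 spanned 0.32, 0.20 and 0.07.

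**Figure D1:**
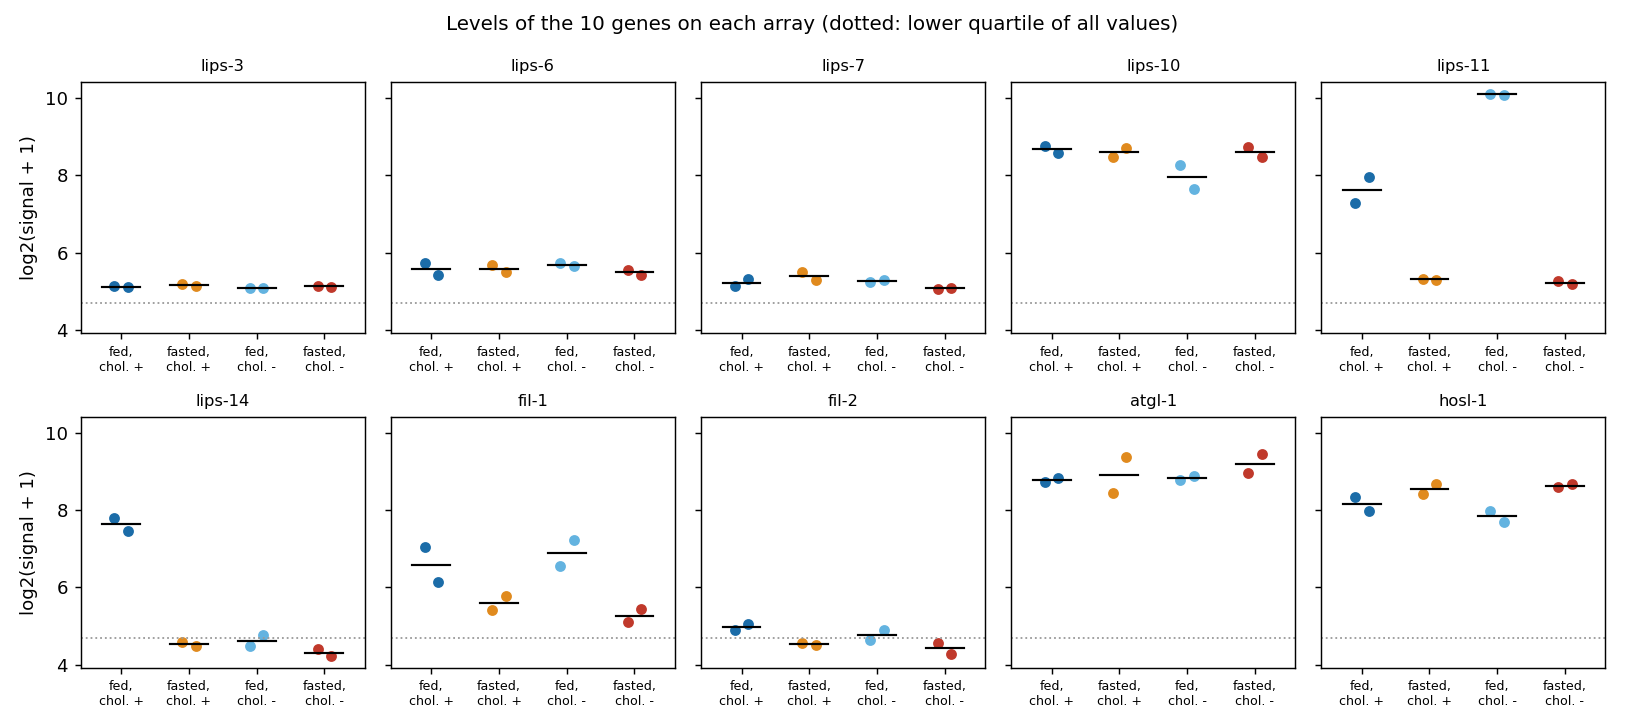
Level of each of the 10 genes as log2(signal + 1) on every array, with 2 points and a bar at the mean for each of the 4 groups; the dotted line marks the lower quartile of all values, 4.69. lips-11 is highest in fed deprived worms at 10.10, and lips-14 stands above 7.4 only in fed worms given cholesterol. Levels of different genes come from different probes and cannot be set against each other.

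Changes were tested with limma over all 22548 probe sets that are not controls, two-sided, with 1 mean per group. The words rose and fell are used for an adjusted p (Benjamini-Hochberg, over all probe sets) under 0.05, and errors of log2 changes are standard errors. In worms given cholesterol, fasting lowered 2 of the 10 genes, lips-11 and lips-14, and raised 0 of 10, where 3.14% of all probe sets fell and 2.03% rose. In deprived worms it lowered 1 of 10, lips-11, and raised 0, where 1.92% of all probe sets fell and 0.989% rose. In fed worms, deprivation raised 1 of 10, lips-11, and lowered 1 of 10, lips-14, where 0.514% of all rose and 0.696% fell. In fasted worms it raised 0 and lowered 0 of the 10, where 0.687% of all rose and 0.417% fell; the smallest adjusted p among the 10 there was 0.289.

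The median change of the 10 genes was -0.03 for fasting with cholesterol, against 0.08 for all, and -0.19 for fasting without cholesterol, against -0.02. It was 0.005 for deprivation of fed worms, against 0.05 for all, and -0.09 for deprivation of fasted worms, against -0.05. In the 4 simple comparisons every call among the 10 was one of lips-11 or lips-14. With 2 arrays against 2, groups without overlap were common among all probe sets, so a separation of arrays alone says little. Fasted arrays were higher in 37.7% and lower in 19.3% with cholesterol, and in 21.5% and 24.7% without it. Deprived arrays were higher in 29.9% and lower in 17.5% in fed worms, and in 17.3% and 27.6% in fasted worms.

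**Figure D2:**
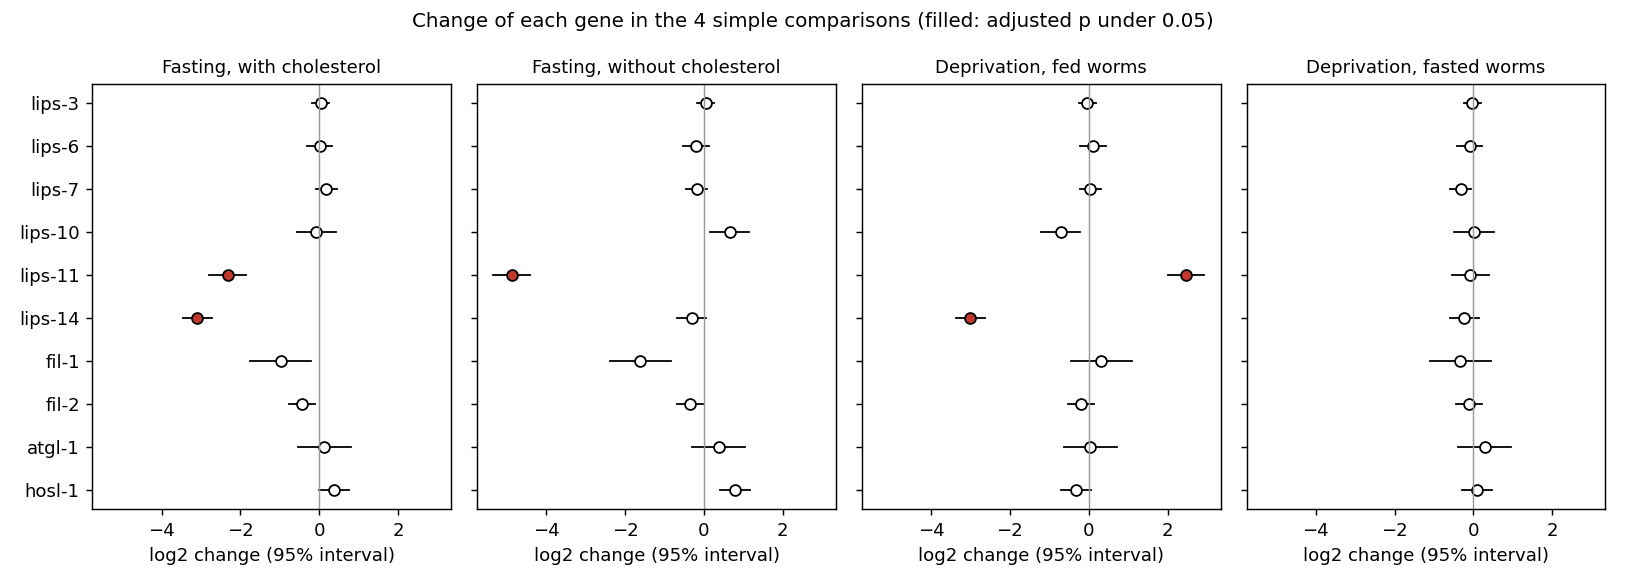
Log2 change of each gene with its 95% interval in the 4 simple comparisons; filled points have an adjusted p under 0.05. lips-11 and lips-14 lie side by side at -2.32 and -3.09 for fasting with cholesterol and on opposite sides of 0, at 2.47 and -3.01, for deprivation of fed worms. No gene passed for deprivation of fasted worms.

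The gene lips-11 was high in fed worms, highest without cholesterol, and low in all fasted worms. Fed worms given cholesterol had log2 signals of 7.29 and 7.97, and fed deprived worms 10.11 and 10.09. Fasted worms had 5.32 and 5.29 with cholesterol and 5.26 and 5.18 without it. On the linear scale these are 155 and 249 units in fed worms given cholesterol, 1101 and 1086 in fed deprived worms, and 35.4 to 38.9 in the 4 fasted arrays. The 3 levels were separate, with no overlap of arrays between fed deprived, fed undeprived and fasted worms, while the fasted groups differed by only 0.08.

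Deprivation of fed worms raised lips-11 by 2.47 ± 0.20 on the log2 scale, or 5.54-fold (limma adjusted p = 0.00484), which placed it 13th from the top among all probe sets in that comparison. Fasting lowered it by 5.0-fold with cholesterol (-2.32 ± 0.20, adjusted p = 0.00111) and by 29.3-fold without (-4.87 ± 0.20, adjusted p = 3.6e-05). Without cholesterol it was 15th from the bottom of all probe sets, and with cholesterol 116th. The fasted means of lips-11 stood at the 37.3th and 35.8th percentile of all values, and whether a signal that low is transcript or background was not tested, so the folds on fasting describe these signals. In fasted worms the change with deprivation was -0.08, with a 95% interval from -0.55 to 0.39. The comparisons of the fed groups with each other and with their fasted counterparts share arrays, and each value is given here on its own. Each of the 3 calls held under all 5 alternative settings and without each array in turn.

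The gene beside lips-11 in the RefSeq gene order (assembly WBcel235), with none in between, is lips-12. Its group means lay between 5.48 and 5.74, and its changes were 0.26 ± 0.17 for fasting with cholesterol and 0.08 ± 0.17 for deprivation of fed worms (adjusted p = 0.373 and 0.878). The collagen gene col-40, on the other side, changed by -0.11 ± 0.11 and -0.01 ± 0.11 in the same comparisons (adjusted p = 0.578 and 0.979).

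Some markers of the intestine were also lower in fasted worms. Of 19 measured markers of the intestine, 5 fell and 1 rose on fasting with cholesterol, and 5 fell and 0 rose without it. Of all probe sets, 3.14% fell and 2.03% rose with cholesterol, and 1.92% fell and 0.989% rose without it. The median change of the 19 was -0.49 with cholesterol and -0.45 without, against 0.08 and -0.02 for all probe sets. Their linear intensities, summed and then put on the log2 scale, weigh the brightest markers most. That sum was 14.49 to 14.60 in fed worms given cholesterol and 14.38 to 14.52 in fed deprived worms. In the fasted counterparts it was 13.15 to 13.19 and 13.02 to 13.03. Between the fed groups, where lips-11 differed by 2.47, the ranges of that sum overlapped, and of the 19 markers pept-1, a peptide transporter, rose by 1.78 and 0 fell. Of 8 body wall muscle markers 2 fell on fasting with cholesterol and 3 without, with 0 rises in either state. The median change of the muscle markers on fasting was -0.23 with cholesterol and -0.71 without. The summed muscle signal was 12.16 to 12.45 in fed worms given cholesterol and 11.61 in their fasted counterparts. It was 11.69 to 11.91 in fed deprived worms and 10.57 to 10.74 in fasted deprived worms. The summed hypodermal signal was 12.56 to 12.89 in fed and 12.03 to 12.31 in fasted worms given cholesterol, and 12.44 to 12.75 and 11.98 to 12.12 in their deprived counterparts. Of 8 hypodermal and 11 germline markers 0 passed on fasting at either cholesterol state, and of 10 embryonic markers 1 rose with cholesterol and 0 passed without. Of 9 neuronal markers 1 rose in each state. Averaged over both cholesterol states, fasting lowered 9 and raised 1 of the 19 intestinal markers. It lowered 4 of 8 muscle, 2 of 8 hypodermal and 1 of 11 germline markers and raised 0 of these. It raised 2 of 9 neuronal and 1 of 10 embryonic markers and lowered 0 of these. Of all probe sets, 5.14% fell and 5.5% rose on that average. The part of tissue makeup in the change of lips-11, or of the other genes that were lower in fasted worms, was not tested.

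The group mean of lips-14 lay above the dim mark only in fed worms given cholesterol. Its log2 signals there were 7.80 and 7.46, against 4.60 and 4.48 in fasted worms given cholesterol, 4.48 and 4.76 in fed deprived worms, and 4.40 and 4.22 in fasted deprived worms. On the linear scale the first pair was 222 and 175 units and the other 6 arrays lay between 17.6 and 26.2. The arrays of fed worms given cholesterol stood clear of the rest, while fed deprived and fasted undeprived arrays overlapped.

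Fasting with cholesterol lowered lips-14 by 8.53-fold (-3.09 ± 0.16, limma adjusted p = 0.00011), and deprivation of fed worms lowered it by 8.05-fold (-3.01 ± 0.16, adjusted p = 0.00155). Among all probe sets these were the 50th and the 8th largest falls. Both comparisons use the same 2 arrays of fed worms given cholesterol. The lower means stood at the 21.7th percentile of all values (fasted, with cholesterol) and the 23.6th (fed, deprived). Whether a signal that low is transcript or background was not tested, so the folds of lips-14 describe these signals. Fasting of deprived worms changed lips-14 by -0.32 ± 0.16 and deprivation of fasted worms by -0.23 ± 0.16 (adjusted p = 0.398 and 0.549), at a signal below the lower quartile on both sides. Both calls held without each array in turn and under the 4 alternatives that keep the gene. The filter that leaves out the dimmest 40% of probe sets removed lips-14, whose mean over all arrays is low because 6 of them are dim.

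RefSeq lists lips-14 as a pseudogene, the only one of the 10; the other 9 are listed as protein-coding. The probe set therefore reports a transcript level and says nothing about a working lipase. The next gene with a measured value, emc-1, a subunit of a membrane protein complex of the endoplasmic reticulum, changed by 0.32 ± 0.10 for fasting with cholesterol and 0.25 ± 0.10 for deprivation of fed worms (adjusted p = 0.123 and 0.344).

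The fasting effects of lips-11 and lips-14 differed between cholesterol states, in opposite directions. The effect without cholesterol minus the effect with cholesterol was -2.55 ± 0.28 for lips-11 (limma adjusted p = 0.0395) and 2.78 ± 0.22 for lips-14 (adjusted p = 0.0184). Of the 10 genes, 1 was called in each direction, where 0.0488% of all probe sets were called in each direction. In both genes the fasted groups were alike, at 5.31 and 5.22 for lips-11 and 4.54 and 4.31 for lips-14, so that the difference in effect lay in the fed levels. The fed deprived mean of lips-14, 4.62, already lay below the dim mark of 4.69, where a change is understated. Whether fasting also lowers lips-14 in deprived worms cannot be told from such signals, which limits what its interaction shows. The fasted means of lips-11 stood at the 37.3th and 35.8th percentile of all values. Whether they are transcript or background was not tested, which limits its interaction as well. With its fasted groups alike, the difference of -2.55 largely restates the 2.47 by which its fed groups differed. For lips-14 the call was lost without any 1 of the 8 arrays, with the difference between 2.60 and 2.95 and adjusted p from 0.0560 to 0.0883. For lips-11 it was kept only without replicate 2 of the fed worms given cholesterol (adjusted p = 0.0274) and lost without each of the other 7 arrays, with the difference between -2.59 and -2.21 and adjusted p up to 0.220. It was also lost with log2(signal + 16), at -2.44 (adjusted p = 0.0966; 0.0110 to 0.0966 over 5 alternatives).

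Averaged over both cholesterol states, fasting lowered 4 of the 10 genes (lips-11, lips-14, fil-1 and fil-2) and raised 1 (hosl-1), where 5.14% of all probe sets fell and 5.50% rose. Averaged over both feeding states, deprivation raised 1 of the 10, lips-11 (1.19 ± 0.14, adjusted p = 0.00706), and lowered 1, lips-14 (-1.62 ± 0.11, adjusted p = 0.000978), where 2.03% of all rose and 2.08% fell. These averages compare 4 arrays with 4, and for lips-11 and lips-14 they mix unequal effects.

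The fasting-induced lipase genes were lower in fasted worms. For fil-1 the log2 signals were 7.03 and 6.13 in fed worms and 5.43 and 5.78 in fasted worms given cholesterol, and 6.56 and 7.22 in fed and 5.11 and 5.44 in fasted deprived worms. Fasted arrays lay below fed arrays at each cholesterol state, while the fed groups overlapped each other and so did the fasted groups. Of all probe sets, 19.3% showed such a separation with cholesterol and 24.7% without it. The average fasting effect was -1.30 ± 0.23 (limma adjusted p = 0.0151), or 2.46-fold lower. It was lost without replicate 1 of the fasted worms given cholesterol (-1.21, adjusted p = 0.0594) and without replicate 2 of the fed deprived worms (-1.14, adjusted p = 0.0509).

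At a single cholesterol state fil-1 did not pass, with -0.98 ± 0.33 with cholesterol (adjusted p = 0.133) and -1.62 ± 0.33 without (adjusted p = 0.0510). Without cholesterol it passed after each array was shifted to an equal median of the brighter probe sets (-1.61, adjusted p = 0.0334) and with the dimmest 40% left out (adjusted p = 0.0301). It did not pass with cyclic loess or with log2(signal + 16), and adjusted p ran from 0.0193 to 0.105 over 5 alternatives. Without each array in turn this change lay between -1.95 and -1.29. The fasting effects at the 2 cholesterol states were not shown to differ (difference -0.64, 95% interval -1.74 to 0.45, adjusted p = 0.641). Deprivation changed fil-1 by 0.31 ± 0.33 in fed and -0.33 ± 0.33 in fasted worms (adjusted p = 0.736 and 0.703).

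The dim gene fil-2 had log2 signals of 4.90 and 5.04 in fed and 4.55 and 4.51 in fasted worms given cholesterol. In deprived worms they were 4.65 and 4.89 when fed and 4.58 and 4.27 when fasted. The fasted arrays lay below the fed ones at each state, by a margin of 0.07 without cholesterol. So did 19.3% of all probe sets with cholesterol and 24.7% without it. The average fasting effect was -0.39 ± 0.10 (adjusted p = 0.0494). The call was kept in 1 of 8 fits that left out an array, without replicate 1 of the fasted deprived worms (adjusted p = 0.0349), and lost in the other 7 (up to 0.158), and it was lost after the shift by the brighter probe sets (-0.34, adjusted p = 0.0942) and with log2(signal + 16) (-0.25, adjusted p = 0.0691; 0.0285 to 0.0942 over 4 alternatives). The changes with deprivation were -0.20 ± 0.14 in fed and -0.11 ± 0.14 in fasted worms, neither past the threshold (adjusted p = 0.589 and 0.772).

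Of the droplet lipases, hosl-1 rose on fasting averaged over both cholesterol states, and atgl-1 was not shown to change. The hosl-1 probe set with the higher mean had log2 signals of 8.33 and 7.98 in fed and 8.41 and 8.66 in fasted worms given cholesterol, and 7.98 and 7.69 in fed and 8.59 and 8.66 in fasted deprived worms. Fasted arrays lay above fed arrays in each state, a separation that 37.7% of all probe sets showed with cholesterol and 21.5% without it. The average fasting effect was 0.59 ± 0.12, or 1.5-fold (limma adjusted p = 0.0210). The second probe set, with signals of 7.48 and 7.41 in fed and 8.08 and 8.10 in fasted worms given cholesterol and 7.32 and 7.44 in fed and 7.54 and 7.91 in fasted deprived worms, gave 0.50 ± 0.10 (adjusted p = 0.0205).

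The probe sets of hosl-1 agree on the average and differ on the state in which the rise was larger. The first gave 0.38 ± 0.16 with cholesterol (adjusted p = 0.212) and 0.79 ± 0.16 without (adjusted p = 0.0533), and the second gave 0.65 ± 0.14 with cholesterol (adjusted p = 0.0437) and 0.35 ± 0.14 without (adjusted p = 0.281). The difference between states was 0.41 ± 0.23 by the first and -0.30 ± 0.19 by the second (adjusted p = 0.559 and 0.606). For the first set, the call without cholesterol was made after the shift by the brighter probe sets (adjusted p = 0.0376) and with the dimmest 40% left out (adjusted p = 0.0456). It was not made with cyclic loess or with log2(signal + 16), and adjusted p ran from 0.0212 to 0.0773 over 5 alternatives. Without each array in turn the change lay between 0.65 and 0.93 for the first set. Its average call was lost without replicate 2 of the fed worms given cholesterol (0.50, adjusted p = 0.0670), of the fasted worms given cholesterol (0.52, adjusted p = 0.0642), of the fed deprived worms (0.51, adjusted p = 0.0751) or of the fasted deprived worms (0.57, adjusted p = 0.0633). Deprivation changed it by -0.32 ± 0.16 in fed and 0.09 ± 0.16 in fasted worms (adjusted p = 0.441 and 0.852).

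The brightest of the 3 atgl-1 probe sets gave log2 signals of 8.73 and 8.83 in fed and 8.45 and 9.36 in fasted worms given cholesterol. In deprived worms it gave 8.77 and 8.87 when fed and 8.95 and 9.44 when fasted. Fed arrays were close together in both states, and the fasted pair given cholesterol spread around them. The fasting change was 0.12 with cholesterol, with a 95% interval from -0.55 to 0.80, and 0.37 without, with an interval from -0.30 to 1.04 (adjusted p = 0.822 and 0.615). The average was 0.25 ± 0.20 (adjusted p = 0.533), and the other 2 probe sets gave averages of 0.37 ± 0.23 and 0.24 ± 0.19 (adjusted p = 0.395 and 0.505). The sets disagreed on the state: fasted arrays lay above fed ones only without cholesterol by the brightest set, and only with cholesterol by the other 2, which changed there by 0.51 ± 0.33 and 0.34 ± 0.26 (adjusted p = 0.380 and 0.458). Of all probe sets, 21.5% showed such a separation without cholesterol and 37.7% with it. With deprivation the brightest set changed by 0.04 ± 0.29 in fed and 0.29 ± 0.29 in fasted worms. Changes of atgl-1 inside those intervals could not be told from 0 with 2 arrays a group.

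**Figure D3:**
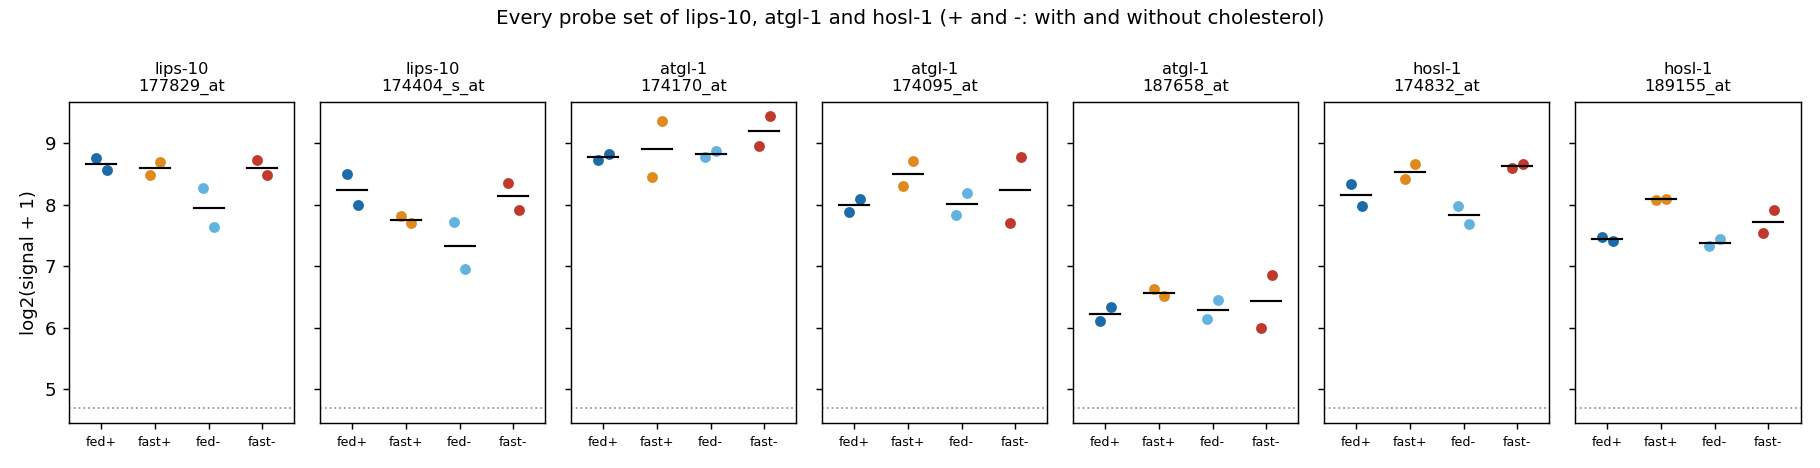
Log2(signal + 1) on every array for each probe set of lips-10, atgl-1 and hosl-1, with 2 points and a bar at the mean per group; the plus and minus signs mark worms with and without cholesterol. Both hosl-1 sets are higher in fasted than in fed worms at each cholesterol state. Fasted atgl-1 arrays lie above fed ones only without cholesterol in the brightest set and only with cholesterol in the other 2, and the second set is at 7.71 and 8.77 in fasted deprived worms.

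The remaining lips genes among the 10 were not called in any of the 7 comparisons. For lips-10 the fed deprived worms were lowest, with log2 signals of 8.27 and 7.63, against 8.76 and 8.57 in fed and 8.48 and 8.70 in fasted worms given cholesterol and 8.72 and 8.48 in fasted deprived worms. The fed deprived arrays lay below all others in this probe set, and the share of all probe sets with that order was not counted. In 17.5% of all probe sets they lay below the fed arrays given cholesterol, and in 21.5% below the fasted deprived arrays. Deprivation of fed worms changed lips-10 by -0.72 ± 0.21 (adjusted p = 0.197) and fasting of deprived worms by 0.65 ± 0.21 (adjusted p = 0.193). A second lips-10 probe set gave -0.91 ± 0.28 and 0.80 ± 0.28 for these (adjusted p = 0.217 and 0.227). Its name ends in _s_at, which marks probes that can match more than 1 transcript. By that set the fed deprived signals, 7.72 and 6.95, overlapped the 7.81 and 7.71 of fasted worms given cholesterol. Fasting with cholesterol changed it by -0.49 ± 0.28 (adjusted p = 0.335), against -0.08 ± 0.21 in the first set (adjusted p = 0.854). The interaction was 1.29 ± 0.40 by the second set and 0.73 ± 0.30 by the first (adjusted p = 0.432 and 0.477).

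All signals of lips-3 lay between 5.08 and 5.19, and no change of it exceeded 0.05 in size, with 95% intervals inside -0.25 and 0.27 in the 4 simple comparisons. For lips-6 the signals lay between 5.41 and 5.74, and its changes in the 4 simple comparisons ran from -0.20 (fasting without cholesterol) to 0.11 (deprivation of fed worms). For lips-7 the signals lay between 5.06 and 5.49, and the simple change farthest from 0 was -0.32 ± 0.12 for deprivation of fasted worms (adjusted p = 0.289). Its interaction was -0.36 ± 0.16 (adjusted p = 0.487). These 3 genes had mean signals at the 33.6th, 42.0th and 36.0th percentile of all probe sets, and whether so low a signal is transcript or background was not tested.

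Among the lips genes not in the 10, 10 had a probe set, and 0 rose and 1 fell on fasting with cholesterol, where 3.14% of all probe sets fell. None of them was called in the other 3 simple comparisons or for the interaction. The one that fell was lips-5 (-1.39 ± 0.22, adjusted p = 0.0144), with group means of 6.35 in fed and 4.95 in fasted worms given cholesterol and 5.25 in fed and 4.95 in fasted deprived worms. Its change with deprivation of fed worms did not pass (adjusted p = 0.0728). As with lips-14, the fed worms given cholesterol had the highest mean. Group means of lips-15 spanned 1.04, from 9.16 in fed worms given cholesterol to 10.20 in fasted deprived worms, with no call.

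**Figure D4:**
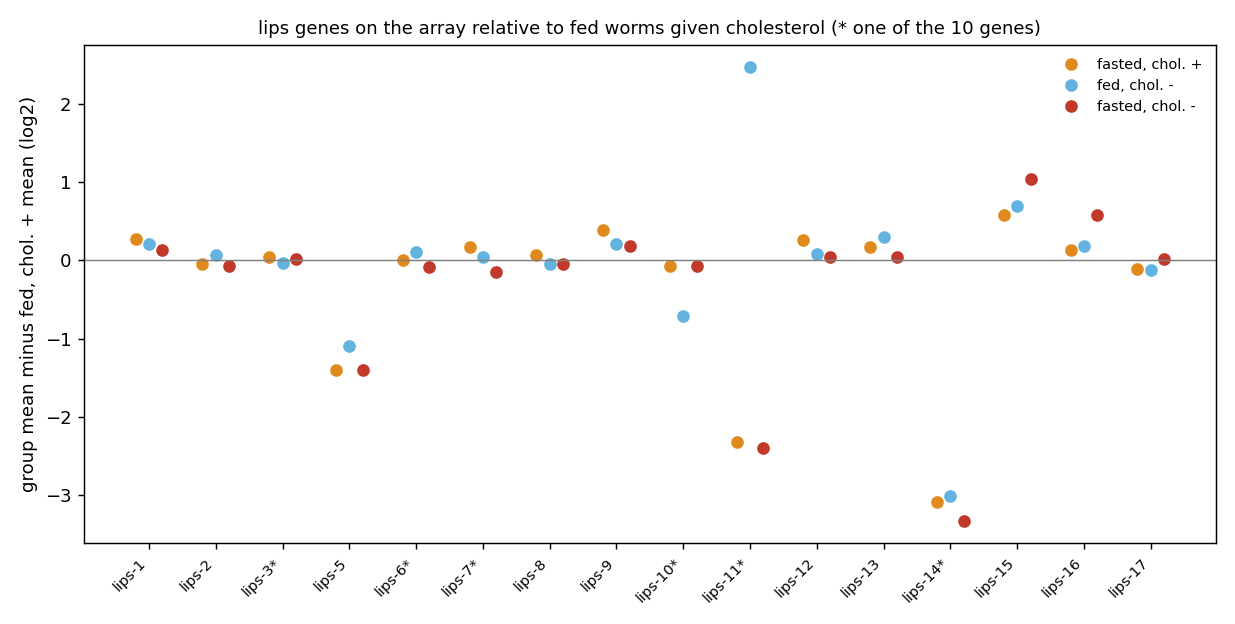
Group mean of each of the 16 measured lips genes minus its mean in fed worms given cholesterol, on the log2 scale, for the other 3 groups; an asterisk marks the lips genes among the 10. lips-5, lips-11 and lips-14 hold the largest departures, and lips-11 is the only one of the 16 with fed deprived worms above and both fasted groups below 0 by more than 1.

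Genes that act around lipid droplets or pass the fasting signal to fat were counted from lists of 16 and 29 measured genes. In lists this short, 1 or 2 calls are close to the shares of all probe sets given above, and nothing is read from the counts. Of 16 measured genes of droplets and triglyceride synthesis, 1 fell on fasting with cholesterol, dgat-2, an acyltransferase of triglyceride synthesis (-0.94 ± 0.19, adjusted p = 0.0347). Without cholesterol 1 fell, the droplet-associated dehydrogenase gene dhs-3 (-1.33 ± 0.25, adjusted p = 0.0384), and 0 rose in either state. The ATGL-1 partner gene lid-1 changed by -0.03 ± 0.12 and -0.24 ± 0.12 (adjusted p = 0.915 and 0.394), and the perilipin gene plin-1 by 0.07 ± 0.12 and 0.14 ± 0.12 (adjusted p = 0.746 and 0.671). Deprivation called 0 of the 16 in fed and 0 in fasted worms.

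Of 29 signalling and transcription factor genes, fasting with cholesterol raised 1 and lowered 1, and 0 were called in the other 3 simple comparisons. Both encode catalytic subunits of AMPK, an energy-sensing kinase that acts on ATGL-1 in C. elegans larvae: aak-2 rose by 0.63 ± 0.12 (adjusted p = 0.0350) and aak-1 fell by 0.53 ± 0.12 (adjusted p = 0.0483). Without cholesterol aak-2 changed by 0.55 ± 0.12 (adjusted p = 0.0728) and aak-1 by 0.03 ± 0.12 (adjusted p = 0.946). The stress sensor gene ire-1 and its chaperone target hsp-4, which earlier work tied to the induction of fil-1 and fil-2 in fasted worms, changed by -0.09 ± 0.15 and -0.13 ± 0.19 with cholesterol and 0.21 ± 0.15 and -0.26 ± 0.19 without, none past the threshold (adjusted p = 0.746, 0.717, 0.602 and 0.591).

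Genes that use the freed fatty acids and glycerol were counted from a list of 17. Fasting with cholesterol raised 4 and lowered 1, fasting without it raised 1, and deprivation raised 2 in fed and lowered 1 in fasted worms. Of all probe sets, 2.03% rose and 3.14% fell on fasting with cholesterol and 0.989% rose without it. Deprivation raised 0.514% of all in fed and lowered 0.417% in fasted worms. The list was chosen with earlier results known, so nothing is read from its counts. In fed deprived worms, where lips-11 was highest, the acyl-CoA synthetase gene acs-2 rose by 3.33 ± 0.26 (adjusted p = 0.0044) and the aquaglyceroporin gene aqp-1 by 2.07 ± 0.19 (adjusted p = 0.00627). Their mean log2 signals were also high in fasted worms given cholesterol, where lips-11 was low, at 11.1 for acs-2 and 11.22 for aqp-1, after rises of 3.85 ± 0.26 and 3.82 ± 0.19 (adjusted p = 0.000405 and 0.00011). With icl-1, an enzyme gene of the glyoxylate cycle, which rose by 1.31 ± 0.16 (adjusted p = 0.00511), they had the smallest p of the 17 in that comparison. In fasted worms deprivation lowered aqp-1, by a change of -1.14 ± 0.19 (adjusted p = 0.048). The gene that fasting raised in deprived worms was hacd-1, named for a hydroxyacyl-CoA dehydrogenase (1.94 ± 0.36, adjusted p = 0.0346). Of 8 lysosomal lipase genes, 2 fell on fasting with cholesterol, 4 on fasting without it, 0 with deprivation of fed worms and 3 with deprivation of fasted worms, and 0 rose in these comparisons. Of all probe sets, 3.14%, 1.92%, 0.696% and 0.417% fell in the same order. This list too was chosen with earlier results known, and nothing is read from its counts. Fasting with cholesterol lowered lipl-7 and lipl-2, by changes of -0.62 ± 0.11 and -1.35 ± 0.29 (adjusted p = 0.0243 and 0.0447). Fasting without it lowered lipl-1 and lipl-2, by changes of -2.77 ± 0.33 and -1.82 ± 0.29 (adjusted p = 0.00601 and 0.0202), and lipl-5 and lipl-7 as well. In fasted worms, where deprivation called none of the 10, lipl-1 fell by 3.61 ± 0.33 (adjusted p = 0.0043), and lipl-5 and lipl-2 fell with changes of -1.48 ± 0.17 and -1.67 ± 0.29 (adjusted p = 0.0117 and 0.0499).

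Over the 8 arrays, the genes with the pattern most like lips-11 were asp-17, named for an aspartyl protease, at r = 0.977, the arrestin domain gene arrd-7 at 0.974 and the kinase gene mlk-1 at 0.972. The log2 group means of asp-17 were 8.54 and 6.70 in fed and fasted worms given cholesterol and 10.26 and 6.50 in their deprived counterparts. Those of mlk-1 stayed between 7.0 and 7.49, so a like pattern can go with a much smaller change. The genes most like lips-14 were cysl-3, named for cysteine synthase, at r = 0.995, the transcription factor gene blmp-1 at 0.989 and brp-1 at 0.980. The group means of blmp-1 were 7.19 in fed worms given cholesterol and 6.02 to 6.20 in the other 3 groups. For fil-1 the closest were ZK896.4 at 0.943, W06A11.4 at 0.925 and C32H11.7 at 0.915. These are Pearson correlations of log2 signals against 12954 genes above the lower quartile, over arrays that share 4 group means, and they are descriptions with no test.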

How the data were processed

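The authors deposited a table of intensities after RMA, per the submitters' processing notes. The version of RMA, the annotation build of the array and detection calls are not given in the sources used here. Array maxima of 18896.9 to 22352.1 show that these intensities are linear. Precision is limited by the number of arrays, and no counting error applies. Of 22625 probe sets, 77 controls were dropped and 22548 tested. Gene symbols came from the platform annotation (20766 probe sets with 1 symbol, 887 with several, 895 with none), and 20701 of the first matched the RefSeq table of assembly WBcel235 by gene number, used for names, gene type and gene order.

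Values were taken as log2(signal + 1), which understates changes of dim genes. All 8 arrays entered 1 fit with limma 3.58.1 under R 4.3.3 (lmFit, eBayes), which had a mean for each group and gave 7 comparisons; residual degrees of freedom were 4 and prior ones 3.37. The P values were adjusted by Benjamini-Hochberg over all probe sets of each. Figures were drawn with matplotlib 3.10.9. Marker sums add linear intensities before log2.

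The 10 genes, the other gene lists and the tests were chosen with earlier results of these data known. Named genes are the 10, up to 3 called genes of each list with the smallest p per simple comparison, and the 3 genes most correlated with each of the 10 that spans at least 1 log2 unit; lips-12, col-40, emc-1, lips-15, pept-1, lid-1, plin-1, ire-1, hsp-4, and aak-1 and aak-2 without cholesterol, were added after their values were seen. Other settings tried were cyclic loess, a block for the replicate number, the bright-set shift (each array moved to an equal median of the brighter probe sets), log2(signal + 16), leaving out the dimmest 40%, and leaving out each array.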

Additional observations from a re-analysis of the deposited data

Results flagged for a closer look

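The fasting effect differed between the cholesterol states for 2 of the 10 genes by the interaction term of the limma fit. For lips-11 the effect without cholesterol minus that with it was -2.55 (adjusted p = 0.0395). Whether its fasted signals are transcript or background was not tested. Its fasted arrays lay below its fed arrays at each state, as in 19.3% of all probe sets with cholesterol and 24.7% without it. For lips-14 it was 2.78 (adjusted p = 0.0184), with a change of -3.09 where cholesterol was given and of -0.32 where it was not, at a signal under the lower quartile. The calls were lost in most fits that left out an array, as given above. No group had the 4 arrays that a check for outlying samples needs.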

How the results depend on the processing

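With 2 arrays a group, the direction of every called change among the 10 genes was the same under all alternatives run, and none was reversed. Over the alternative settings 313 values for single genes kept their side of the threshold, 6 passed it newly and 3 lost it; over left-out arrays 530 kept it, 2 passed it newly and 28 lost it. The number of the 10 past the threshold was 2 for fasting with cholesterol, 1 without, 2 and 0 for deprivation of fed and fasted worms, 2 for the interaction, and 5 and 2 for the average effects of fasting and deprivation. With the dimmest 40% left out, which removes lips-3, lips-7, lips-14 and fil-2, it was 1 for fasting with cholesterol, 3 without, 1 for deprivation of fed worms, 1 for the interaction, 3 for average fasting and 1 for average deprivation. It was 3 for fasting without cholesterol after the bright-set shift, and 1 for the interaction with log2(signal + 16). Without each array in turn it ranged from 1 to 2 for fasting without cholesterol, 0 to 1 for the interaction and 2 to 5 for average fasting.

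The labels do not say that replicate numbers mark a shared day, and the deviations of replicate 1 from the group means correlated at 0.218 to 0.530 between groups. With the replicate number as a block, 3 of the 10 passed for fasting without cholesterol, fil-1 (adjusted p = 0.0193) and hosl-1 (adjusted p = 0.0212) being added. Over all probe sets the block raised the counts from 1164 to 3106 for fasting with cholesterol, 656 to 1730 without, 273 to 988 and 249 to 785 for deprivation of fed and fasted worms, 22 to 115 for the interaction, 2398 to 4409 for average fasting and 925 to 2067 for average deprivation. With log2(signal + 16) the counts were 177 for deprivation of fed worms and 7 for the interaction. Without each array in turn they ranged, in the order above, from 381 to 1153, 258 to 582, 25 to 284, 61 to 157, 0 to 8, 1155 to 2073 and 281 to 794. The bright-set shift moved the share of higher calls from 39.3% to 60.9% for fasting with cholesterol and from 51.7% to 64.6% for average fasting, and the block moved it from 34.0% to 50.4% for fasting without cholesterol. The cause of these moves was not tested.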
